A study of Mus musculus with 8 samples.

Results

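Gm symbols are placeholder names for mouse gene models, and 468 such genes were abundant in fully grown oocytes. The 468 genes have a symbol made of Gm and a number, are listed in all 8 tables, and were selected on their level in GV oocytes, at least 20 TPM in both GV libraries. TPM is the share of all transcripts, corrected for gene length. They were drawn from 2495 Gm genes and 15962 genes listed throughout. The GV level thus fixed the choice, and every comparison with GV is given as a description with no test. They took 6.40 to 6.45% of the summed TPM in GV, 4.30 to 4.35% in MII, 4.15 to 4.29% in Btg4wt and 5.05 to 5.27% in Btg4tm.

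Mouse oocytes of 4 groups were sequenced, with 2 libraries of 15 pooled oocytes each, and the study used ICR females. GV oocytes were fully grown and arrested before meiotic resumption, and MII oocytes had matured without injection. According to the study, both came from oocytes cultured in vitro. Btg4wt and Btg4tm were MII oocytes injected with cRNA of wild-type BTG4 or of a mutant with 3 phosphorylated residues changed to alanine. The study describes them as overexpressing the protein, shown by immunoblot. It adds that exogenous BTG4, wild-type or mutant, seemed to lower the oocyte's own BTG4 protein. The injected oocytes also carried their own Btg4, and the tables do not separate it from the cRNA. Levels are given as scaled TPM, in which each library was divided by a factor that aligns the bulk of genes between libraries. The Btg4 level was 2650 and 2794 scaled TPM in GV, 5792 and 6002 in MII, 5178 and 5510 in Btg4wt, and 3725 and 4068 in Btg4tm. Both Btg4tm libraries were thus below both Btg4wt libraries, and every injected library was below both MII libraries, so these values show no excess of Btg4 RNA after injection. They do not measure the injected protein.

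All 12 oocyte markers looked up were listed, with a summed level between 40062 and 51985 scaled TPM in the 8 libraries. Of 15 markers of cumulus and granulosa cells, 6 were listed in all tables, and their summed level was between 35.5 and 49.8 scaled TPM. Of 6 blood and immune markers only Cd68 was listed, at 3.54 to 8.06 scaled TPM. Nothing in the labels ties the libraries to separate animals, so p-values measure only the spread between these samples. Libraries were primed with oligo(dT), so RNA with a shortened poly(A) tail may be captured less, and fewer molecules and shorter tails cannot be told apart. TPM are shares that keep no read depth, so less RNA per oocyte and fewer contributing oocytes cannot be told apart, and precision rests on the 2 libraries of a group.

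BTG4 is an adaptor that brings the CCR4-NOT deadenylase to maternal mRNA, and its loss leaves maternal transcripts undegraded at the end of oocyte maturation. Gm models range from long noncoding RNAs to members of oocyte gene clusters and pseudogenes. A processed pseudogene is a copy of a spliced mRNA that was reverse-transcribed into the genome, and its sequence may differ little from that of the source gene. A short read from such a copy can fit both loci, and the counting dropped reads with a mapping quality under 10, so near-identical copies lose reads.

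GENCODE vM21, on GRCm38, held 446 of the 468 genes. It called 193 of them long noncoding RNAs (lncRNA), 106 processed pseudogenes, 56 antisense RNAs, 43 protein coding, 25 other pseudogenes, 8 small RNAs and 15 TEC (models that await experimental evidence). The other 22 had no entry in that release, which is older than the one used for counting, and RefSeq held 10 of these. The genes lay on 21 chromosomes, with at most 36 on one. Gm20826 is annotated on chromosome Y, which oocytes of females lack, so its reads cannot be assigned to that locus. Their models were short, with a median exonic length of 742 bases against 3556 bases over all genes tested, and 130 consisted of a single exon. In 53 genes exons overlapped those of another gene, and counting was not strand-specific, so reads of overlapping partners cannot be told apart.

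Shared sequence was measured as the part of the longest transcript made of 50-base stretches that other annotated transcripts also hold, on either strand. It was 0% in 221 genes, up to 20% in 60, up to 80% in 82 and over 80% in 83. The median was 0% in lncRNAs and 69% in processed pseudogenes, of which 49 were above 80%. Of the 106 processed pseudogenes, 103 aligned over at least 50% of their length with a transcript of a named protein-coding gene. Their median identity was 96.5% (range 70.8 to 100%).

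The following windows of 60 bases, from GENCODE vM21 transcripts, show how far a read could tell a pseudogene from its best-matching gene. They are shown for the pseudogene with the largest rise, for 3 others of low identity and for a pair of exact copies. Capitals mark bases that differ between the pair.
Gm7525 (chr10:12846136-12846195, plus strand): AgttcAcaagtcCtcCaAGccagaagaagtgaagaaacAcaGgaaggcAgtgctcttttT
Cfl1 (gene at chr19:5490455-5495201, plus strand): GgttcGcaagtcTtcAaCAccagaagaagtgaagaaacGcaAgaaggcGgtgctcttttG
Gm12351 (chr4:34457890-34457949, plus strand): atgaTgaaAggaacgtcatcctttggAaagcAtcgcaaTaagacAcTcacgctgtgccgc
Rpl37 (gene at chr15:5116645-5119140, plus strand): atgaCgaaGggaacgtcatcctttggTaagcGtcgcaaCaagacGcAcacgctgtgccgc
Gm9451 (chr9:106121742-106121801, minus strand): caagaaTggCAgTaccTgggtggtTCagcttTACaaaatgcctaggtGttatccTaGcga
Rpl6 (gene at chr5:121204481-121209241, plus strand): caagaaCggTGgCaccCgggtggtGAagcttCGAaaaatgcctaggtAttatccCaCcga
Gm8609 (chr16:39934127-39934186, plus strand): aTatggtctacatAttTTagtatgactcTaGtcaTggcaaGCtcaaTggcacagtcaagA
Gapdh (gene at chr6:125161715-125166467, minus strand): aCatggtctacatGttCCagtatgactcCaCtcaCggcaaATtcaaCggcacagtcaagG
Gm12338 (chr11:75599895-75599954, minus strand): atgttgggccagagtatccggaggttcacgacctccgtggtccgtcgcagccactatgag
Cox7c (gene at chr13:86044816-86046904, minus strand): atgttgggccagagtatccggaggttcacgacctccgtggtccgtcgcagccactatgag

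Gm7525 differed from Cfl1 at 10 of these 60 bases, and the whole alignment of 507 columns held 36 mismatches and 59 gap columns, with a longest identical run of 42 bases. The longest runs were 29 bases for Gm12351 and Rpl37, 38 bases for Gm9451 and Rpl6, and 30 bases for Gm8609 and Gapdh. Gm12338 matched Cox7c over all of its 192 bases, so a read inside the model fits both loci equally. Gm12751 likewise matched Polr1d over 381 bases.

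The central comparison set mutant against wild-type BTG4. Of the 468 genes, 182 (38.9%) rose in Btg4tm relative to Btg4wt and 18 (3.85%) fell, by limma with Benjamini-Hochberg adjusted p under 0.05 over 13968 genes and a log2 fold change beyond 1. Over all genes tested the shares were 18.1% higher and 7.94% lower. The median log2 fold change was 0.52 for the 468 genes (quartiles -0.13 and 1.62) and 0.01 for all genes. Among 4235 named protein-coding genes that also reached 20 TPM in both GV libraries, 29.3% rose, with a median of 0.13. Among 1697 Gm genes tested that did not reach that level, 11.5% rose, with a median of 0.07. With libraries scaled to mitochondrially encoded genes, which put the median of all genes at 0.88, 70.9% of the Gm genes were called higher and 1.07% lower. Short genes in general rose more often, with 28.2% of all genes of 500 to 999 exonic bases called higher against 42.4% of the 172 Gm genes of that length. Gm genes of 1000 bases and over were called higher in 32.9% of 155, against 16.9% of all such genes.

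Of the 182 genes that rose, 86 had a log2 fold change above 2 and 34 above 3. Fold changes are on the log2(scaled TPM + 1) scale, which understates the change of genes near 0. A further 94 genes had an adjusted p under 0.05 with a smaller change and were not called.

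The largest difference was that of Gm7525, the processed pseudogene resembling Cfl1, which encodes the actin-severing protein cofilin. Gm7525 was at 232 and 172 scaled TPM in GV and at 5.96 and 6.23 in MII. It was at 4.58 and 8.98 in Btg4wt and at 558 and 713 in Btg4tm, so that the mutant libraries were the highest of the 8. The log2 fold change of Btg4tm over Btg4wt was 6.40 ± 0.27 (SE, n = 2 per group, limma adjusted p = 1.7e-06). Gm7525 lies within the gene Utrn, on the other strand, without overlapping its exons. Cfl1 itself averaged 380 scaled TPM in Btg4wt and 334 in Btg4tm (log2 fold change -0.19).

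Noncoding models were among the largest and best-measured rises. Gm36241, a lncRNA on chromosome 5, was at 441 and 410 scaled TPM in GV, 18.4 and 18.1 in MII, 15.5 and 20 in Btg4wt, and 304 and 389 in Btg4tm. Its log2 fold change was 4.21 ± 0.16 (limma adjusted p = 1e-06), and it shared no sequence with other transcripts. Gm48093, an antisense RNA on chromosome 10, was at 253 and 260 in GV, 15 and 10.9 in MII, 13.4 and 17 in Btg4wt, and 243 and 258 in Btg4tm. In both genes every GV and Btg4tm library was far above every MII and Btg4wt library. Gm33055, which had no GENCODE entry and lies at chr17:79737380-79745073 in RefSeq, reached 122 and 106 in Btg4tm from 2.83 and 1.58 in Btg4wt. Gm48893, a lncRNA that shares 33.9% of its exonic bases with its neighbour Gm48892, reached 239 and 349 from 21.5 and 17.2.

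**Figure D1:**
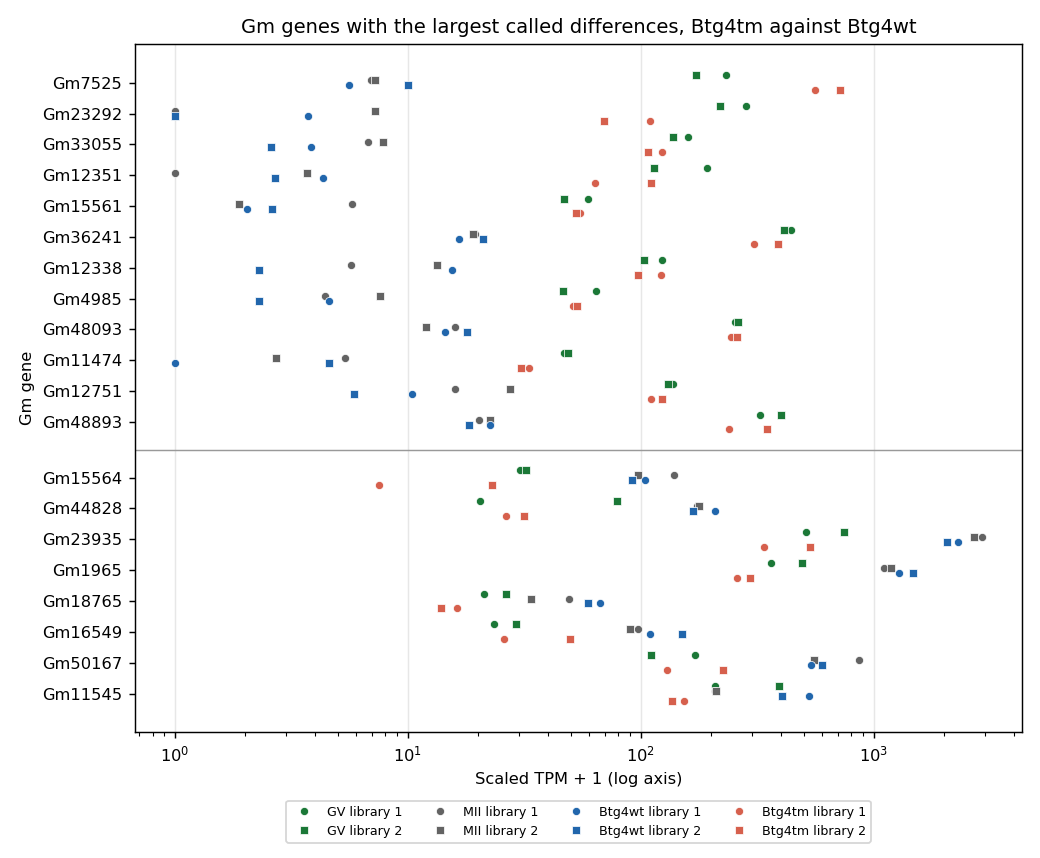
Scaled TPM plus 1 on a log axis for the 12 Gm genes with the largest called rise (upper block) and the 8 with the largest called fall (lower block) in Btg4tm against Btg4wt. Each point is a library, coloured by group, with circles for library 1 and squares for library 2. In the upper block the GV and Btg4tm points lie together on the right and the MII and Btg4wt points on the left, and Gm7525 has its Btg4tm points, at 558 and 713, to the right of GV.

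The most abundant noncoding genes in GV differed in direction and size between Btg4tm and Btg4wt, and only some passed the test. Gm42817, an antisense model within Tmem132d, was at 1137 and 1065 scaled TPM in GV, 68.9 and 68.6 in MII, 80.6 and 71.6 in Btg4wt, and 728 and 801 in Btg4tm (log2 fold change 3.31 ± 0.10, limma adjusted p = 7.5e-07). Gm42980 rose by 3.16 ± 0.15 and Gm43269 by 2.51 ± 0.21 on the log2 scale. Gm3143 rose by 1.13 ± 0.15, from 546 and 697 in Btg4wt to 1245 and 1468 in Btg4tm, and its log2 fold change was 0.96, below the threshold, without Btg4wt library 1. Gm47432 did not reach the threshold (0.27 ± 0.13, adjusted p = 0.11), at 367 and 332 in Btg4wt and 401 and 445 in Btg4tm. Gm1070 and Gm44796 had values of -0.72 and -0.76 with adjusted p of 0.016 and 0.0023, both short of the fold threshold, and both were above 0 (0.37 and 0.33) with mitochondrial scaling.

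The classes differed in how often their genes rose, as a description with no test between classes. The shares over all genes tested were 18.1% called higher and 7.94% called lower. Among named protein-coding genes at 20 TPM or more in both GV libraries they were 29.3% and 6.71%. Of 15 TEC models 10 were called higher and 0 lower, with a median log2 fold change of 1.44. Over 80% of the sequence was shared in 11 of the 15, each with 89 to 237 other genes and 9 of them called higher, so their reads cannot be assigned to single models with certainty. Of 56 antisense RNAs 28 were called higher and 4 lower, with a median of 1.02. LncRNAs had 73 of 193 higher and 4 lower (median 0.46), and processed pseudogenes 39 of 106 higher and 4 lower (median 0.44). Protein-coding models had 17 of 43 higher and 1 lower, and the 22 genes without an entry 10 higher and 1 lower. The 25 other pseudogenes, annotated as unprocessed (copies that arose by duplication of DNA), had 2 higher, 3 lower and a median of -0.11. Of 8 small RNA models 3 were higher and 1 lower.

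**Figure D2:**
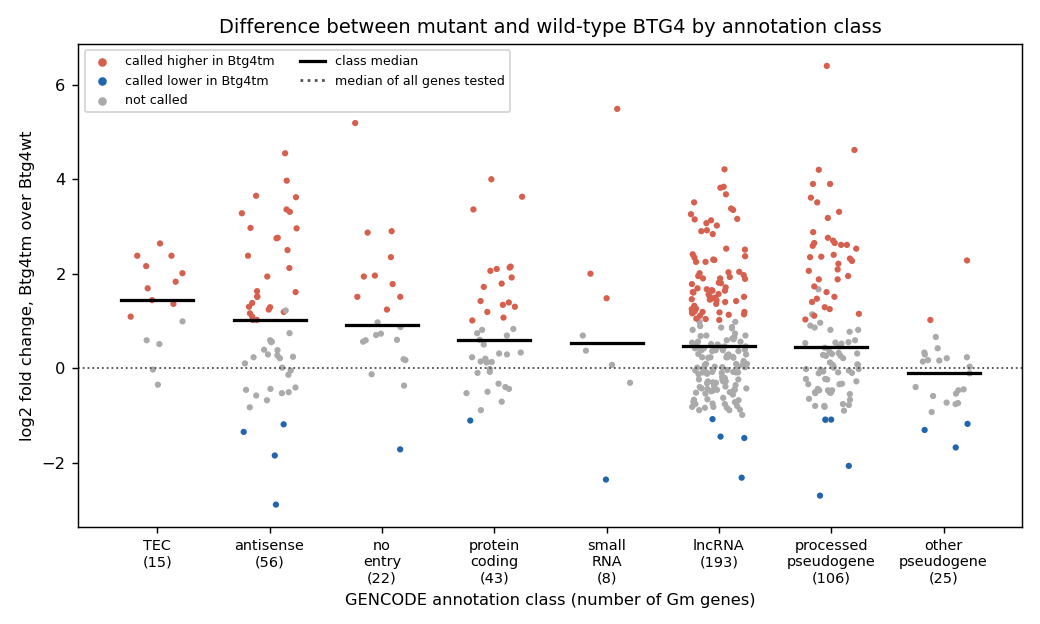
Log2 fold change of Btg4tm over Btg4wt for each of the 468 Gm genes by GENCODE class, with the number of genes in parentheses. Red points were called higher, blue points lower and grey points neither, black bars are class medians, and the dotted line is the median of all genes tested at 0.01. TEC models, most of which share sequence with many others, and antisense models have the highest medians, 1.44 and 1.02, and other pseudogenes the lowest, -0.11.

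Antisense models were set beside the gene on the opposite strand. For 39 of the 56 antisense genes a named gene on that strand was tested, and 19 of these 39 were called higher in Btg4tm. The opposite gene was called higher beside 2 of the 19, not called beside 15 and called lower beside 2. The shares over all genes tested were 18.1% called higher and 7.94% called lower. Gm15561 rose from 1.03 and 1.60 scaled TPM in Btg4wt to 53.7 and 51.9 in Btg4tm, a log2 fold change of 4.55 ± 0.44 (limma adjusted p = 7.7e-05), and its exons overlap those of Klhdc1 over 3.52% of their length. Klhdc1 had a log2 fold change of -0.20. Gm17120 overlaps exons of Slc6a20a over 75.8% and rose by 3.65 ± 0.27, while Slc6a20a had a value of 0.38. Of the 18 antisense genes with a tested neighbour and no exon overlap 9 were called higher, and of the 21 with overlap 10 were.

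Processed pseudogenes were set beside their best-matching genes. A tested gene was found for 97 of them, covering 88 different genes. In 23 pairs both were called higher, in 12 only the pseudogene was, and in 10 only the gene was. In 45 pairs neither was called. Gm14671 was called higher beside Xk, which was called lower at a mean of 3.5 scaled TPM in Btg4wt and 0.598 in Btg4tm, and Gm9451 was called lower beside a gene called higher. Pairs that share most of their sequence cannot be read as separate measurements. The log2 fold changes of pseudogene and gene differed by more than 1 in 12 of the 49 pairs above 80% shared sequence, in 10 of the 22 pairs between, and in 12 of the 26 pairs at 20% or less.

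Ribosomal protein genes gave 20 of these pseudogenes, 10 of them (50%) called higher and 2 (10%) lower, with a median log2 fold change of 1.31. The shares over all genes tested were 18.1% and 7.94%. Gm12351, the copy of Rpl37 without a shared 50-base stretch, was at 192 and 113 scaled TPM in GV, 0 and 2.69 in MII, 3.32 and 1.69 in Btg4wt, and 62.7 and 110 in Btg4tm (log2 fold change 4.62 ± 0.58, limma adjusted p = 0.0003). Rpl37, a protein of the large ribosomal subunit, was called higher with a smaller value of 1.49. Gm15772, identical to Rpl26 in 99.5% of bases, was at 47.5 and 32.4 in Btg4wt and 254 and 157 in Btg4tm, and all of its sequence is shared. Gm9451 went the other way from Rpl6. It was at 27.4 and 36.8 scaled TPM in GV, 129 and 114 in MII, 91.6 and 99.4 in Btg4wt, and 58 and 33.8 in Btg4tm (log2 fold change -1.09 ± 0.24, limma adjusted p = 0.0059). Rpl6 had a value of 3.37 in the same comparison, and averaged 67.5 scaled TPM in GV and 3.35 in MII. Without Btg4tm library 2 the value of Gm9451 was -0.71 and it was not called. Gm13491, the second most abundant pseudogene of this family, had a value of -0.02 ± 0.17.

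Copies of genes outside the ribosomal families follow. Gm12338, the exact copy of the cytochrome c oxidase subunit gene Cox7c, was at 122 and 102 scaled TPM in GV, 4.70 and 12.3 in MII, 14.4 and 1.29 in Btg4wt, and 121 and 96.4 in Btg4tm. Its value of 4.20 ± 0.76 (limma adjusted p = 0.0022) stood beside 3.78 for Cox7c, and was 5.57 without Btg4wt library 1 and 2.82 without library 2. Gm12751, the exact copy of Polr1d, rose by 3.90 ± 0.30 and Polr1d by 1.55. Gm11474, 89.2% identical to the respiratory complex gene Uqcrh, rose by 3.90 ± 0.61 (2.81 without Btg4wt library 1 and 5.0 without library 2), and Uqcrh by 2.10. The 3 copies of the glycolytic gene Gapdh differed among themselves. Gm8609 rose from 8.61 and 3.96 in Btg4wt to 25.5 and 40.6 in Btg4tm, and Gm10364 from 6.16 and 6.05 to 18.3 and 19. Gm13394, 99.9% identical to Gapdh, was at 32.3 and 29.5 in Btg4wt and 14.7 and 24.7 in Btg4tm, with an adjusted p of 0.071, and Gapdh had a value of -0.28. Gm15459, a copy of the chaperone gene Hspa8 with all of its sequence shared, had a value of 0.86 ± 0.16 and was not called, but passed the threshold without Btg4wt library 1 (1.03) or Btg4tm library 2 (1.07). Gm5434, the second most abundant processed pseudogene and 93.1% identical to Ube2f, was just past the threshold at 1.03 ± 0.10, and short of it at 0.97 without Btg4wt library 2 and 0.98 without Btg4tm library 2.

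**Figure D3:**
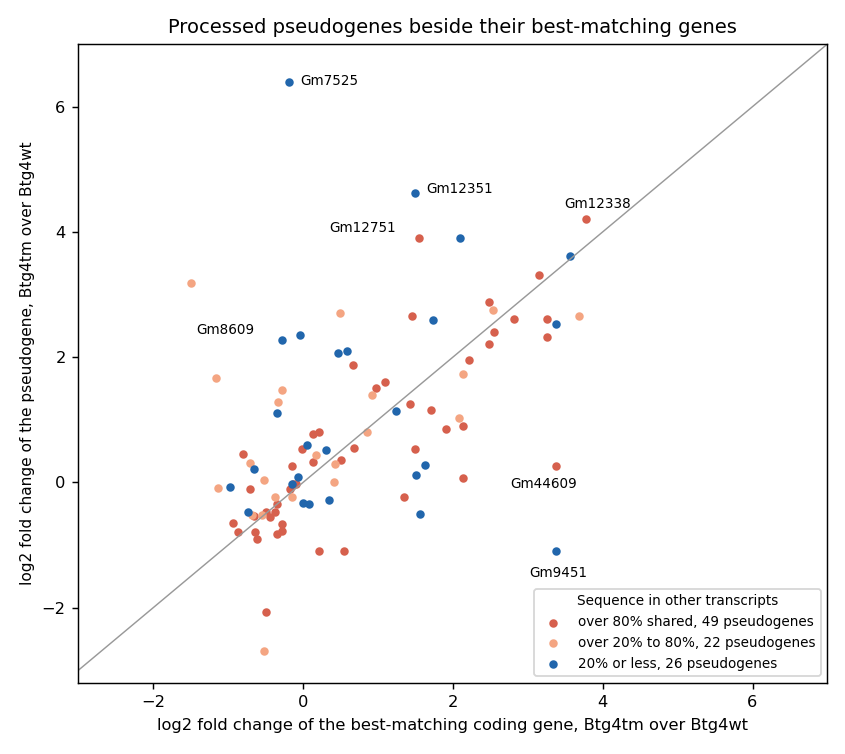
Log2 fold change of Btg4tm over Btg4wt for 97 processed pseudogenes (vertical axis) against that of the best-matching coding gene (horizontal axis), coloured by the share of the pseudogene's sequence found in other annotated transcripts. The line marks equal values. Gm7525 lies far above the line, at 6.40 beside -0.19 for Cfl1, and Gm9451 far below it, at -1.09 beside 3.37 for Rpl6, and both have 0% shared sequence.

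The share of genes that rose was also counted by shared sequence, with no test between the classes. Among Gm genes of any class 40.7% of 221 with no shared stretch were called higher, 35% of 60 with up to 20%, 28% of 82 with up to 80% and 45.8% of 83 above that. Only the longest transcript of each gene was searched. Gm15564, counted with no shared stretch, holds 52 bases of Lars2 in another transcript. The count over the 281 genes at 20% or less was 111 higher (39.5%) and 9 lower (3.2%), and without genes that overlap another gene's exons it was 151 higher of 393 (38.4%) and 15 lower.

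Ends of the annotated models were also compared. The last 100 bases of the longest transcript held AATAAA or ATTAAA, the hexamers that precede most poly(A) sites, in 34.3% of 443 Gm genes with a model of that length, against 68.7% of 13645 genes tested. The share was 42.6% in the noncoding classes (lncRNA, antisense and TEC) and 9.92% in both classes of pseudogenes. TTTTAT, a form of the cytoplasmic polyadenylation element, was found there in 10.2% of the Gm genes and 13.1% of all. Among 111 noncoding models that rose and 144 that were not called, AATAAA was found in 21.6% and 42.4%, ATTAAA in 16.2% and 9.03%, and TTTTAT in 9.01% and 16%, as a description with no test. AATAAA or ATTAAA was found in 36.9% of these risen models and 47.9% of those not called. Over Gm genes of all classes the shares were close, at 33.7% and 35.7%. The search covered the transcript strand only, and a match is no evidence of a functional element. Pseudogene models may end inside coding-like sequence, as in Gm12338, where 189 of 192 bases aligned with coding bases of Cox7c. A missing hexamer is thus no evidence on where the RNA ends.

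Relatives of the Oog genes, a family expressed in oocytes, were among the Gm genes. Of 10 whose best match was an Oog gene, 7 of them protein coding, 6 (60%) rose in Btg4tm and 0 fell. Over all genes tested 18.1% rose and 7.94% fell. Shared sequence in these 10 ranged from 2.77% in Gm13089 to 96.6% in Gm2042, with 72.5% in Gm13023. They cannot be read as 10 separate measurements. Gm13023, the most abundant of all 468, was at 2147 and 2541 scaled TPM in GV, 1106 and 1090 in Btg4wt, and 1831 and 1721 in Btg4tm, with a log2 fold change of 0.69 ± 0.11. Gm4985, a protein-coding model on chromosome X that is 85.6% identical to Tes, rose by 4.0 ± 0.36, from 3.60 and 1.30 in Btg4wt to 50.1 and 52.1 in Btg4tm. Gm47182, an unprocessed pseudogene matching Nlrp4f, was at 1204 and 1228 in Btg4wt and 624 and 650 in Btg4tm, at -0.93 ± 0.10, short of the threshold, and at 0.16 with mitochondrial scaling.

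Falls in Btg4tm were fewer, and 10 of the 18 genes that fell (55.6%) were also at least 2-fold higher in MII than in GV, against 42.1% of all 1109 genes called lower. Gm1965, a lncRNA on chromosome 6, was at 361 and 490 scaled TPM in GV, 1106 and 1183 in MII, 1281 and 1469 in Btg4wt, and 258 and 293 in Btg4tm (log2 fold change -2.32 ± 0.15, limma adjusted p = 1.2e-05). Gm50167, with no GENCODE entry, was at 170 and 110 in GV, 866 and 552 in MII, 536 and 597 in Btg4wt, and 129 and 225 in Btg4tm. In both genes all MII and Btg4wt libraries were above all GV and Btg4tm libraries. Gm44828, a model of 106 bases, had a value of -2.70 ± 0.50, and its GV libraries were far apart at 19.3 and 77.7. Gm11545, a pseudogene of Tmem92, fell by 1.68 ± 0.26 on the log2 scale without a matching rise in MII, at 207 and 391 in GV, 208 and 209 in MII, and 528 and 402 in Btg4wt. Gm18765, a copy of the splicing factor gene Crnkl1, fell by 2.07 ± 0.20, and Gm16549, antisense to Fndc3a, by 1.85 ± 0.29. Exons of Gm16549 overlap those of Fndc3a over 19.1% of their length. Fndc3a was itself called lower (log2 fold change -1.48, limma adjusted p = 3.6e-05). Counting was not strand-specific, so reads of this pair cannot be told apart. With mitochondrial scaling Gm50167 (-0.64), Gm11545 (-0.59), Gm16549 (-0.78) and Gm9451 (-0.02) were no longer called lower.

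A pair of very short loci, annotated as miRNA genes, carried large values in opposite directions. They are shown whole, because a library fragment is longer than either and their sequence is found elsewhere.
Gm23292 (chr7:36302515-36302615, plus strand): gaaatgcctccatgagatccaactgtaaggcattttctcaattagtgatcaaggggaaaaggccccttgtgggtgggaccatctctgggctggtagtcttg
Gm23935 (chr16:11144125-11144181, plus strand): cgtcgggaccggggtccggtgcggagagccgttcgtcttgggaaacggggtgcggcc

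Other annotated genes carry 50-base stretches of Gm23292, 84 of them in all, so the origin of its reads is uncertain. Gm23292 was at 281 and 217 scaled TPM in GV, 0 and 6.22 in MII, 2.74 and 0 in Btg4wt, and 108 and 68.3 in Btg4tm. Its log2 fold change of 5.49 ± 0.88 was 6.44 without Btg4wt library 1 and 4.54 without library 2. Gm23935, whose whole sequence occurs in 2 other annotated genes, was at 511 and 747 in GV, 2922 and 2698 in MII, 2305 and 2059 in Btg4wt, and 337 and 533 in Btg4tm (log2 fold change -2.36 ± 0.23, limma adjusted p = 8.6e-05). A poly(A)-primed library does not capture mature miRNAs, so these values concern longer RNA, from the loci or from like sequence elsewhere. Copies were searched for in annotated transcripts only, so which RNA gave the reads of Gm23292 and Gm23935 is not known.

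The largest fall was that of Gm15564, an antisense model at chr16:35966752-35983230 on the minus strand, at 29.4 and 31.2 scaled TPM in GV, 138 and 95.8 in MII, 103 and 90.6 in Btg4wt, and 6.52 and 22 in Btg4tm (log2 fold change -2.89 ± 0.43, limma adjusted p = 0.00079). A stretch of 52 bases in one of its transcripts also occurs, on the same strand, in Lars2, which encodes a mitochondrial leucyl-tRNA synthetase.
Shared by Gm15564 and Lars2: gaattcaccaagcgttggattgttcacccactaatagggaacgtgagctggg
Lars2, chosen after its values were seen, was at 38.6 and 58.3 in GV, 131 and 126 in MII, 158 and 117 in Btg4wt, and 20.6 and 25.3 in Btg4tm (log2 fold change -2.52 ± 0.21, limma adjusted p = 3.9e-05). In both genes all MII and Btg4wt libraries were above all GV libraries, and all GV libraries above both Btg4tm libraries. The part of the shared stretch in either value was not tested. The stretch was looked for in Gm15564 and Lars2 only, so other sources of its reads are not known. The falls of Gm15564 and Lars2 cannot be read as separate measurements. Without Btg4tm library 1 the value of Gm15564 was -2.09, and without library 2 it was -3.70.

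From GV to MII, as a description, 225 of the 468 genes (48.1%) were at least 2-fold lower and 46 (9.83%) at least 2-fold higher. Over all genes tested 24.4% were at least 2-fold lower and 12.8% higher, and the median log2 fold change was -0.89 for the Gm genes and near 0 for all genes. With mitochondrial scaling 92.9% of the Gm genes were at least 2-fold lower and 0% higher. Selection for a high GV level favours genes that are lower elsewhere, and nothing is read from the difference. The lowest values of MII over GV were -6.53 for Gm23292, -6.27 for Gm12351, -5.65 for Gm29797, -5.43 for Gm17120 and -4.91 for Gm49735. The highest were 2.33 for Gm50167, 2.18 for Gm23935 and 2.14 for Gm44828.

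The genes low in MII were mostly those that rose in Btg4tm. Of the 225 genes at least 2-fold lower in MII than in GV, 177 (78.7%) were called higher in Btg4tm than in Btg4wt and 0 lower, against 69.1% of all 3403 genes with such a decline. The median GV level was 53.8 scaled TPM in the 225 genes and 22.5 in the 3403. The shares are thus not set at like level, and nothing is read from their difference. Of the 46 genes at least 2-fold higher in MII, 10 (21.7%) were called lower and 0 higher, against 26.2% of all 1785 such genes called lower. Outside the 225, only 5 genes rose in Btg4tm, with log2 fold changes of 1.60 for Gm32834, 1.56 for Gm42947, 1.19 for Gm3259, 1.07 for Gm364 and 1.02 for Gm10076. These 5 genes were chosen for naming after their values were seen. Gm10076 is 99.5% identical to Rpl41 over 99.7% of its length, and 99.2% of its sequence is shared, so its reads cannot be assigned with certainty.

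**Figure D4:**
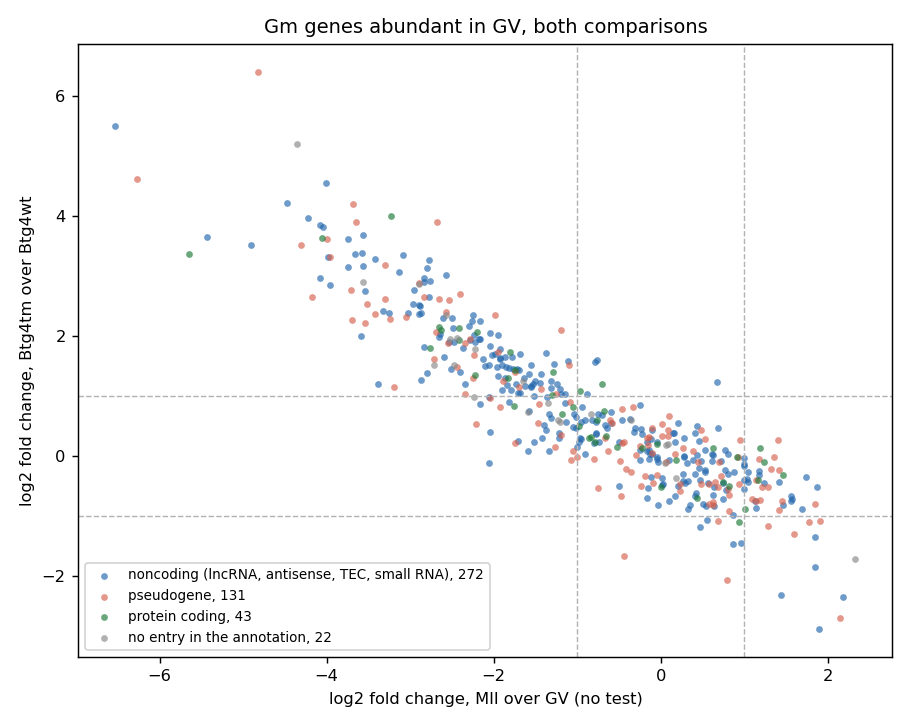
Log2 fold change of MII over GV (horizontal axis, no test) and of Btg4tm over Btg4wt (vertical axis) for the 468 Gm genes, coloured by kind of annotation; no library is used on both axes. Dashed lines mark 2-fold. Points run from the upper left, where genes are low in MII and high in Btg4tm, to the lower right, and all but 5 of the 182 called rises lie left of the -1 line.

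Levels in Btg4tm were also set against GV, with no test. The median log2 difference between Btg4tm and GV was -0.24 for the 468 genes, against -0.08 for all genes tested, and 18 genes (3.85%, against 1.85% of all) were at least 2-fold lower. That share depended on the scaling and on 1 library, at 37.2% with mitochondrial scaling, 7.48% with TPM as deposited and 7.05% without Btg4tm library 2. Of the 182 genes called higher in Btg4tm than in Btg4wt, 107 (58.8%) had both Btg4tm libraries below both GV libraries and 7 (3.85%) had both above, against 60.2% and 5.49% of all 2534 genes called higher. Another 7 rose in Btg4tm and were still at least 2-fold below GV, among them Gm23292 at -1.51, Gm29797 at -1.26 and Gm8609 at -1.02. Gm7525 was 1.65 above GV on the log2 scale. The other 6 genes at least 2-fold above GV (7 genes, 1.5%, in all, against 1.44% of all genes tested) were not called between Btg4tm and Btg4wt, and included Gm4981, at 36.7 and 37.1 scaled TPM in GV and 80 and 85.2 in Btg4tm.

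Injection of wild-type BTG4 was compared with uninjected MII oocytes. None of the 468 genes was called in either direction by limma, as for all genes tested (0%), while 80 Gm genes had an unadjusted p under 0.05, against 1655 of 13968 genes. With mitochondrial scaling 9 Gm genes (1.92%) were called higher in Btg4wt. The smallest adjusted p was 0.10, for Gm48290, a processed pseudogene matching Dlgap5, with a log2 fold change of 1.39. The median log2 fold change of the Gm genes was 0.00 (quartiles -0.23 and 0.21). Between replicate libraries the median absolute log2 difference over the Gm genes was 0.21 in GV, 0.25 in MII, 0.25 in Btg4wt and 0.26 in Btg4tm.

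The threshold of 20 TPM separates genes of like level. Just inside it, in deposited TPM, were Gm7426 at 20.4 and 20 in the GV libraries, Gm14521 at 20 and 30.5, and Gm11779 at 25 and 20.1. Just outside were Gm13841 at 20.9 and 19.9, Gm44988 at 20 and 27, whose first value lies under 20 before rounding, and Gm35853 at 20 and 22, likewise. One more Gm gene, Gm7550, passed the level but is not listed in the tables of injected oocytes.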

How the data were processed

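The deposited values were TPM per gene symbol, 1 table per library, made by the authors. According to the study's methods, reads were trimmed with Trim Galore 0.6.10, aligned to GRCm38 with HISAT2 2.2.0 and counted with featureCounts 2.0.6 on exons of GENCODE vM25, without strand, keeping primary alignments with a mapping quality of at least 10. The gene lengths behind TPM and the rule for listing genes are not given in the sources used here. The labels state 3 samples per group, and 2 per group were analysed.

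The tables were scaled by median-of-ratios factors (0.948 to 1.11). Genes with at least 1 TPM in 2 libraries (13968 of 15962) were tested as log2(scaled TPM + 1) with limma 3.58.1 in R 4.3.3, in 1 fit over 8 libraries with trended eBayes. The fit was tested on simulated data. All 468 genes passed the filter, which the GV level that chose them ensures. Annotation came from GENCODE vM21 and RefSeq (GRCm38.p6), and the best-matching gene from blastn 2.17.0, sense strand, with at least 60 coding bases aligned. Groups are given by both library values, and ± is the standard error of the fit.

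The Gm genes, gene lists and tests were chosen with earlier results of these data known. Genes were named as the 12 most abundant in GV, the 12 largest called rises and 8 largest called falls with Btg4tm and Btg4wt libraries not overlapping, the 8 lowest and 5 highest MII over GV, the 3 on each side of the threshold, the 2 most abundant of each class or family, and the matching gene of pseudogenes. Oog, Nlrp, Gapdh and other genes outside this rule were named after their values were seen. Alternatives covered scaling, pseudocount, filter, thresholds, libraries, the replicate block, the level of 20 TPM, shared sequence and exon overlap. Shared sequence was measured against annotated transcripts, since no genome sequence was used here.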

Additional observations from a re-analysis of the deposited data

How the results depend on the processing

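The 7 shares and the median for the Gm genes were recomputed under each alternative, as a share of the genes. Scaling to mitochondrially encoded genes put the median of all genes at 0.88 for Btg4tm over Btg4wt (0.01 otherwise), 0.39 for Btg4wt over MII (0.02), -1.74 for MII over GV (0.00) and -0.64 for Btg4tm over GV (-0.08). With it 70.9% of the Gm genes were called higher in Btg4tm and 1.07% lower, the median was 1.54, and 1.92% were called higher in Btg4wt than in MII. It also put 92.9% at least 2-fold lower in MII than in GV, 0% higher, and 37.2% lower in Btg4tm than in GV. Quantile normalization gave 7.05% called lower in Btg4tm and a median of 0.30, and with no minimum fold change 15.4% were called lower. The share at least 2-fold lower in Btg4tm than in GV was 7.48% with TPM as deposited and 2.5% at a level of 50 TPM. The median of Btg4tm over Btg4wt was 0.42 at a level of 10 TPM and 0.65 at 50 TPM. Apart from 1 library left out, given next, no other alternative moved a share by over 1.5 times. The causes were not tested. A restriction by sequence found elsewhere in the whole genome was not run, since annotated transcripts alone were searched. At most 20% shared sequence and a length of at least 200 bases were chosen after seeing the data.

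Leaving out 1 library gave 35.9 to 39.3% called higher and 3.85 to 5.77% lower in Btg4tm, medians of 0.46 to 0.57, 0 to 0% called in Btg4wt against MII, 47.0 to 48.7% lower and 9.83 to 11.1% higher in MII than in GV, and 3.85 to 7.05% lower in Btg4tm than in GV, the last without Btg4tm library 2. A group left with 1 library was assumed to vary like the others.

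With the replicate number as a block 39.3% were called higher and 3.85% lower, and no share moved by over 1.5 times. The numbers mark no shared animal or day in the labels, and the deviations of same-numbered libraries correlated between -0.05 and 0.06.

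The named genes that changed sign had not been called. Under mitochondrial scaling the log2 value was 0.37 for Gm1070, 1.06 for Gm13491, 0.73 for Gm31579, 0.35 for Gm44133, 0.33 for Gm44796, 0.16 for Gm47182 and 0.92 for Gm7426, and under quantile normalization -0.16 for Gm11779 and -0.04 for Gm8801. Over the fits without 1 library the values ranged from -0.37 to 0.45 for Gm11779, -0.31 to 0.27 for Gm13491, -0.39 to 0.17 for Gm7426 and -0.20 to 0.25 for Gm8801. Calls lost were those of Gm5434 under quantile normalization (0.90) and without Btg4wt library 2 (0.97) or Btg4tm library 2 (0.98), of Gm3143 without Btg4wt library 1 (0.96), of Gm9451 without Btg4tm library 2 (-0.71), and under mitochondrial scaling of Gm9451 (-0.02), Gm11545 (-0.59), Gm16549 (-0.78) and Gm50167 (-0.64). Calls gained under mitochondrial scaling were those of Gm11779 (1.07), Gm12633 (2.02), Gm13023 (1.78), Gm14521 (2.01), Gm15459 (1.94), Gm47432 (1.36), Gm50056 (1.96) and Gm8801 (1.11). Without 1 library Gm1070 (-1.05), Gm12633 (1.15), Gm14521 (1.14 to 1.67), Gm15459 (1.03 to 1.07) and Gm50056 (1.02) gained a call, and Gm14521 (1.14) also with a filter of 5 TPM and with the replicate block.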
